A study of Mus musculus with 6 samples.

Results

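Genes of epithelial cell adhesion and of intermediate filaments were followed in 2 mouse cell types, embryonic stem cells (mESCs) and progenitors of oligodendrocytes (mOPCs). The 10 genes were a list of names: Cdh1, Cdh2, Epcam, Cldn6, Cldn7, Krt8, Krt18, Vim, Nes and Gfap. They are 10 of 35325 genes counted, which were coding genes and genes of long non-coding RNAs, and all 10 were among the 16713 genes that passed the filter on low counts. The level of a gene was the number of CAGE tags, each the 5′ end of a capped RNA, on the gene's strand within 500 bp of its annotated 5′ ends, scaled to counts per 1000000 tags of the library (CPM). CAGE gives 1 tag per capped end whatever the length of the RNA, so levels of different genes were not divided by length.

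Cadherins join neighbouring cells through calcium-dependent contacts, and epithelial cells are known for E-cadherin while neural and mesenchymal cells are known for N-cadherin. Claudins form the strands of tight junctions, which seal an epithelial sheet. Intermediate filament proteins build the resilient part of the cytoskeleton and differ by cell type, with paired keratins in epithelia, vimentin in mesenchymal and many undifferentiated cells, nestin in neural progenitors and GFAP in astrocytes. Embryonic stem cells grow as compact, E-cadherin-bound colonies with an epithelial character, whereas oligodendrocyte progenitors are migratory cells of the neural lineage.

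CAGE was performed on nuclear RNA from 3 libraries of each cell type. The mESCs were the R08 line, cultured without feeder cells with leukemia inhibitory factor at 1000 U/ml and 15% serum. The mOPCs were the Oli-neu line, an immortalized line of mouse oligodendrocyte progenitors, cultured with N2 supplement, T3 at 340 ng/ml, thyroxine at 400 ng/ml, bFGF at 10 ng/ml and PDGF-BB at 1 ng/ml. Each cell type was 1 cell line in its own medium, and the deposited tables name another library for the mESC than for the mOPC samples. Cell type, line, medium and library preparation therefore cannot be told apart. The study uses the word biological replicate for cell batches that differ in passage, but neither its methods nor the labels state this for the CAGE libraries. The p-values measure the spread between these libraries, which may be in part technical.

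Libraries held 16657021 to 40928704 tags, and the most used position took 0.508% to 0.667% of the tags in mESCs and 5.39% to 5.92% in mOPCs. A count of 3 tags, the limit allowed by a count of 0, was worth 0.0733 to 0.180 CPM per library. The labelled cell types were checked with marker lists. The 8 mESC markers summed to 3911–4312 CPM in mESCs and 22.9–24.9 CPM in mOPCs, where Pou5f1, Nanog, Zfp42, Dppa5a, Utf1 and Tdgf1 had no tags. The 8 oligodendrocyte progenitor markers summed to 8.82–10.2 CPM in mESCs and 2413–2558 CPM in mOPCs, where Nkx2-2 had no tags. The 7 of them that were tested were called higher in mOPCs. Pdgfra differed little in size, with 5.41 to 5.70 CPM in mESCs and 7.82 to 8.60 CPM in mOPCs. Among lists of other cell types, trophoblast markers summed to 21.04–26.2 CPM in mESCs and at most 0.0912 CPM in mOPCs, and primitive endoderm markers to 65.2–81.5 and 56.4–62.3 CPM. The sums were 138.6–152.7 and 341.1–368.4 CPM for astrocyte, 23.4–27.1 and 99.8–102.3 CPM for neural stem or radial glial, 30.6–37.3 and 235.1–281.8 CPM for neuron, and 18.8–24.2 and 9.67–12.4 CPM for fibroblast markers. Of the 6 neuron markers, 4 were called lower and 2 higher in mOPCs, where Map2 and Syt1 made up nearly the whole sum and Rbfox3, Snap25 and Nefl had no tags. The 6 neural stem or radial glial markers include Nes. Of them, 4 were called higher and 2, Sox1 and Prom1, lower in mOPCs. Most of the fibroblast sum came from Thy1 in mESCs (15.5–21.1 CPM) and from Col1a1 in mOPCs (9.67–12.3 CPM). Of 16713 genes tested with the quasi-likelihood test of edgeR, 43.4% were called higher and 47.8% lower in mOPCs at an adjusted p under 0.05, so that a call by itself sets a gene little apart.

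All 10 genes were called. The 4 genes called higher in mOPCs were Cdh2, Vim, Nes and Gfap, and the 6 called lower were Cdh1, Epcam, Cldn6, Cldn7, Krt8 and Krt18. The libraries of the cell types did not overlap for any of the 10, which held for 44.6% of all tested genes in the higher direction and for 46.8% in the lower. The 6 lower genes were close to or at a count of 0 in mOPCs. Each of the 6 passed the filter on low counts through its mESC tags alone. Genes that pass in this way are bound to differ, so the adjusted p-values of the 6 add no support. The weakest of the 6 in mESCs was Krt8, and 10202 genes had at least its mESC level. Of these, 5.51% had no more than 2 tags in the 3 mOPC libraries together, and each of the 6 had 0 to 2. Both limits were taken from the values of the 6 genes, which therefore met them by construction. The share is a description and does not test the 6 genes.

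**Figure D1:**
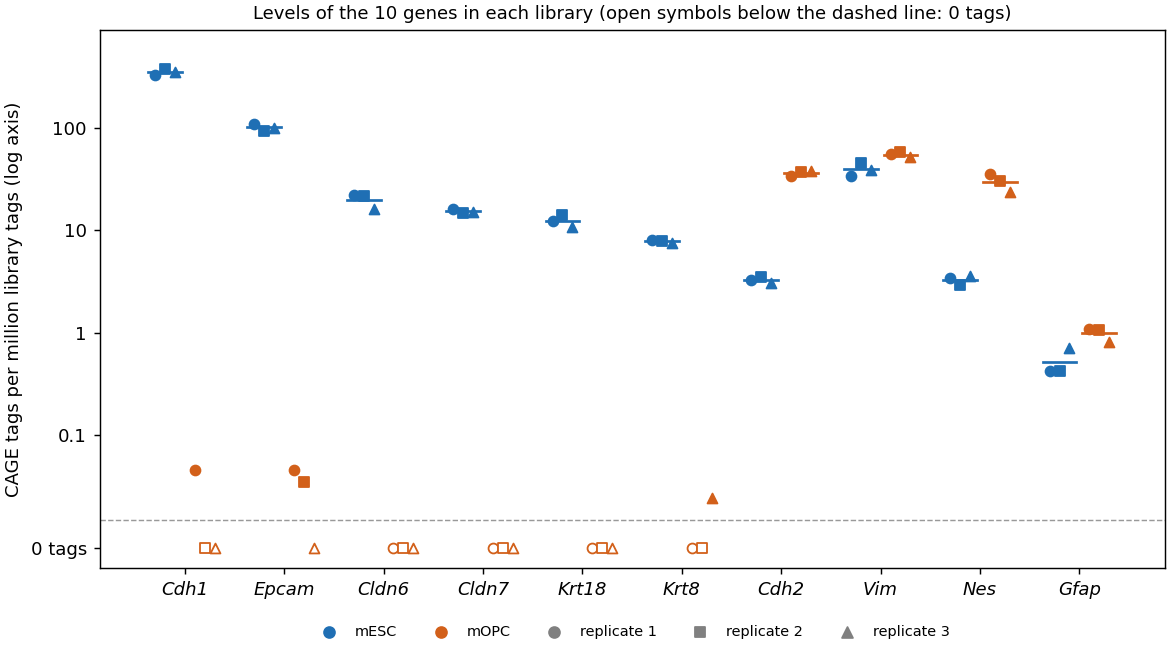
Level of each gene in each library, in CPM on a log axis, for mESC (blue) and mOPC (orange), with symbols for replicates and bars for the mean where every library had tags. Open symbols below the dashed line are libraries with 0 tags; the 6 epithelial genes on the left lie at 0.0456 CPM or below in mOPCs, while Vim lies above 30 CPM in both cell types.

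The stretch of DNA around the position with most tags in a RefSeq promoter entry (GRCm38.p6, 250 bases before to 50 after the annotated start) is shown for genes with at least 20 tags in an entry. Entries were found for 8 of the 10 genes, and Cdh1 and Cdh2 had none. Each line gives 60 bases before the position and 10 bases from it, in the direction of transcription. Capitals mark the position and the base after it, and any match to a TATA box or to an E box of the form that Snail and Zeb family proteins are known to bind. The sequences are shown so that the promoter used in both cell types (Vim), the neighbouring positions that led in the pooled libraries of each cell type (Nes) and those used in mESCs (the rest) can be compared. The lines of Epcam and Cldn7 are centred on a secondary start, since the position with most tags of these genes lies outside the entries.
Vim, both cell types, chr2:13574250-13574319, plus strand: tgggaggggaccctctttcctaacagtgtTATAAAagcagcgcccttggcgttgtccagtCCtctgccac
Nes, mESC, chr3:87971019-87971088, plus strand: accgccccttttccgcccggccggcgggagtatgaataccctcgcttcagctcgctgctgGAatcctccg
Nes, mOPC, chr3:87971017-87971086, plus strand: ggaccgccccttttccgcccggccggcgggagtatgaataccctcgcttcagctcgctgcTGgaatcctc
Krt8, mESC, chr15:102004306-102004375, minus strand: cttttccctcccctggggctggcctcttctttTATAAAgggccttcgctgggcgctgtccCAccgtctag
Krt18, mESC, chr15:102028167-102028236, plus strand: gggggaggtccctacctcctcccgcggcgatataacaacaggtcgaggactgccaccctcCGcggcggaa
Cldn6, mESC, chr17:23679310-23679379, plus strand: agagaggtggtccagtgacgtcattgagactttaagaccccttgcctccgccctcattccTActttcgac
Cldn7, mESC, chr11:69965360-69965429, plus strand: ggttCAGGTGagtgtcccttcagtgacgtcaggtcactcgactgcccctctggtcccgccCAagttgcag
Epcam, mESC, chr17:87635920-87635989, plus strand: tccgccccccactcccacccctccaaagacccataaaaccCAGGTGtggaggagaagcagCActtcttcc

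The letters of the TATA box, TATAAA, began 31 bases before the leading position of Vim and 28 bases before that of Krt8, and the other lines held none. They were found on either strand in 13.6% of all 32851 promoter entries. The letters of the E box, CACCTG, were found on either strand in at least 1 entry of each of the 5 genes with a lower level in mOPCs that have an entry (Epcam, Cldn6, Cldn7, Krt8 and Krt18) and in none of those of the 3 other genes (Vim, Nes and Gfap). These letters occurred in 20.2% of all entries, and a match is a description of these windows only. Cldn7 had more than 1 entry, and its upstream entry held no match. Other letters were searched as well. CCAAT (37.4% of all entries) was found for Vim alone, and GGGCGG (35.7%) for Nes, Epcam, Cldn6 and Cldn7. The capital pair was a pyrimidine followed by a purine in each line except those of Vim and of Nes in mESCs. Over promoter entries with at least 100 tags in a cell type, this pair, the usual one at a start of transcription with the purine as first base, was found at the most used position and the next base in 86.9% to 88.8% of entries by strand and cell type. At the preceding base and the most used position it was found in 1.10% to 1.43%. Positions are therefore given as deposited and may lie 1 base before the first transcribed base. The cause was not tested.

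E-cadherin was the gene with the highest level of the 10 in mESCs and was almost without tags in mOPCs, while N-cadherin rose there. Cdh1 (ENSMUSG00000000303.12, chr8:106603351-106670246, plus strand, mm10 as all coordinates here), which encodes E-cadherin, was at 330.1, 373.6 and 352.8 CPM in mESC_1, mESC_2 and mESC_3. In mOPC_1 it was at 0.0456 CPM, from a single tag, and in mOPC_2 and mOPC_3 it had none. All mESC libraries were high, and only 335 of the genes counted had a higher mean there. The ratio of the pooled levels, from 25232 tags against 1, was 31700 with a 95% exact binomial interval of 5690 to 1252000 that covers counting error only (edgeR adjusted p = 3.37e-78).

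Cdh2 (ENSMUSG00000024304.14, chr18:16588877-16809246, minus strand), which encodes N-cadherin, was at 3.27, 3.54 and 3.09 CPM in mESCs. In mOPCs it was at 34.3, 37.5 and 37.9 CPM. Every mOPC library was above every mESC library, and the gene was present, at a low level, in all mESC libraries. The log2 fold change was 3.41 ± 0.13 (SE, n = 3 per cell type, edgeR adjusted p = 2.34e-45), or 10.6-fold. The level of Cdh1 was 106.8 ± 6.7 times that of Cdh2 in mESC libraries (SD, n = 3) and at most 0.00133 times in mOPC libraries. The change of Cdh2 was not rare in size, since 28.1% of tested genes had a log2 fold change at least as large in either direction. In bulk libraries such as these, fewer cells with a transcript and less RNA per cell cannot be told apart.

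The other surface proteins of the epithelial group were almost without tags in mOPCs as well. Epcam (ENSMUSG00000045394.9, chr17:87635979-87651129, plus strand), an adhesion molecule of epithelial and pluripotent cells, was at 109.3, 93.7 and 100.4 CPM in mESCs. In mOPCs it had 1, 1 and 0 tags, or at most 0.0456 CPM. The ratio of the pooled levels was 4745 (95% exact binomial interval 1313 to 39190, adjusted p = 1.34e-70).

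The claudins fell to a count of 0. Cldn6, a claudin of embryonic epithelia and pluripotent cells (ENSMUSG00000023906.3, chr17:23679249-23682446, plus strand), was at 22.0, 21.9 and 16.2 CPM in mESCs. Cldn7, a claudin of many epithelia (ENSMUSG00000018569.12, chr11:69964779-69967885, plus strand), was at 16.2, 14.8 and 15.1 CPM there. Neither had a tag in any mOPC library. With 3 pooled tags as the floor, Cldn6 was at least 626.6-fold lower and Cldn7 at least 477.5-fold lower in mOPCs (adjusted p = 8.00e-47 and 3.72e-49). Cldn6 exceeded Cldn7 by 1.30 ± 0.21 times within mESC libraries (SD, n = 3), although the ranges of the genes overlapped between libraries.

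The keratin pair of simple epithelia was present at a low level in mESCs and was near or at a count of 0 in mOPCs. Krt18 (ENSMUSG00000023043.7, chr15:102028180-102032027, plus strand), the type I partner, was at 12.5, 14.1 and 10.7 CPM in mESCs and had no tags in mOPCs. Krt8 (ENSMUSG00000049382.10, chr15:101996698-102004482, minus strand), the type II partner, was at 7.97, 7.93 and 7.54 CPM in mESCs. In mOPCs a single tag of Krt8 was found, in mOPC_3, at 0.0244 CPM. Krt18 was at least 378.2-fold lower in mOPCs (adjusted p = 4.45e-46), and the ratio for Krt8 was 720 (95% exact binomial interval 128.7 to 28490, adjusted p = 3.92e-41). The number of Krt8 tags was 0.637 ± 0.071 times that of Krt18 in mESCs and below it in each of the 3 libraries. The partners form filaments as pairs of 1 protein each, but tags of nuclear capped RNA do not measure protein. Trophoblast and primitive endoderm, known for these keratins, had markers summing to 21.04–26.2 and 65.2–81.5 CPM in mESCs. Most of these sums came from Tfap2c (17.8 to 22.3 CPM) and Dab2 (43.3 to 54.8 CPM), and Dab2 was also at 56.4 to 62.3 CPM in mOPCs. Of the other primitive endoderm markers, Gata4 was at 9.63 to 12.01, Gata6 at 9.77 to 10.69 and Sox17 at 1.77 to 2.88 CPM in mESCs. These were at 0.0347 CPM or below in mOPCs. Foxa2 had tags in each mESC library and Afp had none. Of the other trophoblast markers, Eomes was at 1.32 to 1.44 CPM in mESCs, while Cdx2 and Elf5 were at 0.132 CPM or below. Hand1 and Krt7 had tags in each mESC library. The part of trophoblast or primitive endoderm cells in the keratin level was not tested.

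Vimentin differed least of the 10 genes on the log2 scale. Vim (ENSMUSG00000026728.9, chr2:13573927-13582826, plus strand) was at 34.0, 45.9 and 39.0 CPM in mESCs, the third level of the 10 genes. In mOPCs it was at 55.1, 58.2 and 51.6 CPM, the highest level of the 10. The mOPC libraries were all above the mESC libraries by a narrow gap. The log2 fold change was 0.41 ± 0.09 (SE, n = 3 per cell type, 95% interval 0.23 to 0.59, edgeR adjusted p = 2.76e-05), or 1.33-fold, and 84.7% of tested genes had a change at least as large in either direction. In mESCs, Vim exceeded Krt18 by 3.22 ± 0.46 times (SD, n = 3). In nuclear RNA the mesenchymal filament gene was thus above the epithelial ones in bulk libraries with high Cdh1. Whether the same cells held both was not tested.

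Nestin rose with N-cadherin. Nes (ENSMUSG00000004891.16, chr3:87971078-87980451, plus strand) was at 3.41, 2.94 and 3.58 CPM in mESCs and at 35.4, 30.1 and 23.9 CPM in mOPCs. The mOPC libraries spread more than for Cdh2 but stood far above the mESC libraries. The log2 fold change was 3.08 ± 0.13 (SE, n = 3 per cell type, edgeR adjusted p = 3.21e-38), or 8.44-fold. The ranges of Nes and Cdh2 overlapped in each cell type, with a ratio of Cdh2 to Nes of 1.01 ± 0.18 in mESCs and 1.27 ± 0.31 in mOPCs (SD, n = 3). The ratio of Vim to Nes went from 12.2 ± 3.0 in mESCs to 1.89 ± 0.31 in mOPCs.

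Gfap (ENSMUSG00000020932.14, chr11:102887336-102900912, minus strand), the astrocyte filament gene, was close to the limit of detection in both cell types. Its levels were 0.422, 0.420 and 0.706 CPM in mESCs and 1.10, 1.08 and 0.806 CPM in mOPCs, from 36 and 88 tags in all. The ranges did not overlap but nearly touched. The log2 fold change was 0.89 ± 0.32 (SE, n = 3 per cell type, edgeR adjusted p = 0.00642), or 1.86-fold. The call was lost with DESeq2 (0.80, adjusted p = 0.117) and without mESC_1 (0.73, adjusted p = 0.0700), and over the whole gene body the direction turned (−0.38, adjusted p = 0.322). The gene body begins at the most upstream annotated 5′ end. It leaves out the tags before that end, where most mOPC tags of Gfap lay. Of the 8 astrocyte markers, which include Gfap, 5 were called higher and 2 lower in mOPCs, beside 43.4% and 47.8% of all tested genes. S100b, at 200.2 to 211.1 CPM, made up the largest part of the mOPC sum. The 2 lower were Gja1 (70.0–85.7 CPM in mESCs, at most 0.0456 in mOPCs) and Aldh1l1 (7.44–9.82 CPM, at most 0.0694). Aqp4 had no tags in mOPCs and at most 0.0543 CPM in mESCs. The part of astrocytes in the level of Gfap was not tested.

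The tags of Gfap came from 2 places, whose mean levels differed between the cell types in opposite directions. At the 5′ end of Gfap-203, annotated as a processed transcript without a coding sequence and upstream of the coding transcripts, there were 5, 2 and 6 tags in mESCs and 20, 26 and 26 in mOPCs. This gave 0.193 ± 0.115 CPM in mESCs and 0.816 ± 0.157 CPM in mOPCs (SD, n = 3), a 4.24-fold higher mean. At the 5′ ends of the coding transcripts Gfap-201 and Gfap-202 there were 11, 5 and 7 tags in mESCs and 4, 5 and 7 in mOPCs. The levels there were 0.324 ± 0.049 and 0.176 ± 0.0060 CPM, so that the mOPC mean was 0.543 times that of mESCs. The libraries of the cell types did not overlap at either place (exact permutation test, two-sided p = 0.1 for each, the smallest that 3 against 3 libraries can give). The split was made after the values were seen, and its comparisons were 2 of 8 made of single places or shares (Benjamini-Hochberg adjusted p = 0.114). In these counts the mOPC excess of Gfap lay near the start of the non-coding transcript. At the coding 5′ ends the pooled tags were 23 in mESCs and 16 in mOPCs, too few to settle a direction. The most used single position in mOPCs, with 14 tags, lay at a coding 5′ end.

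**Figure D2:**
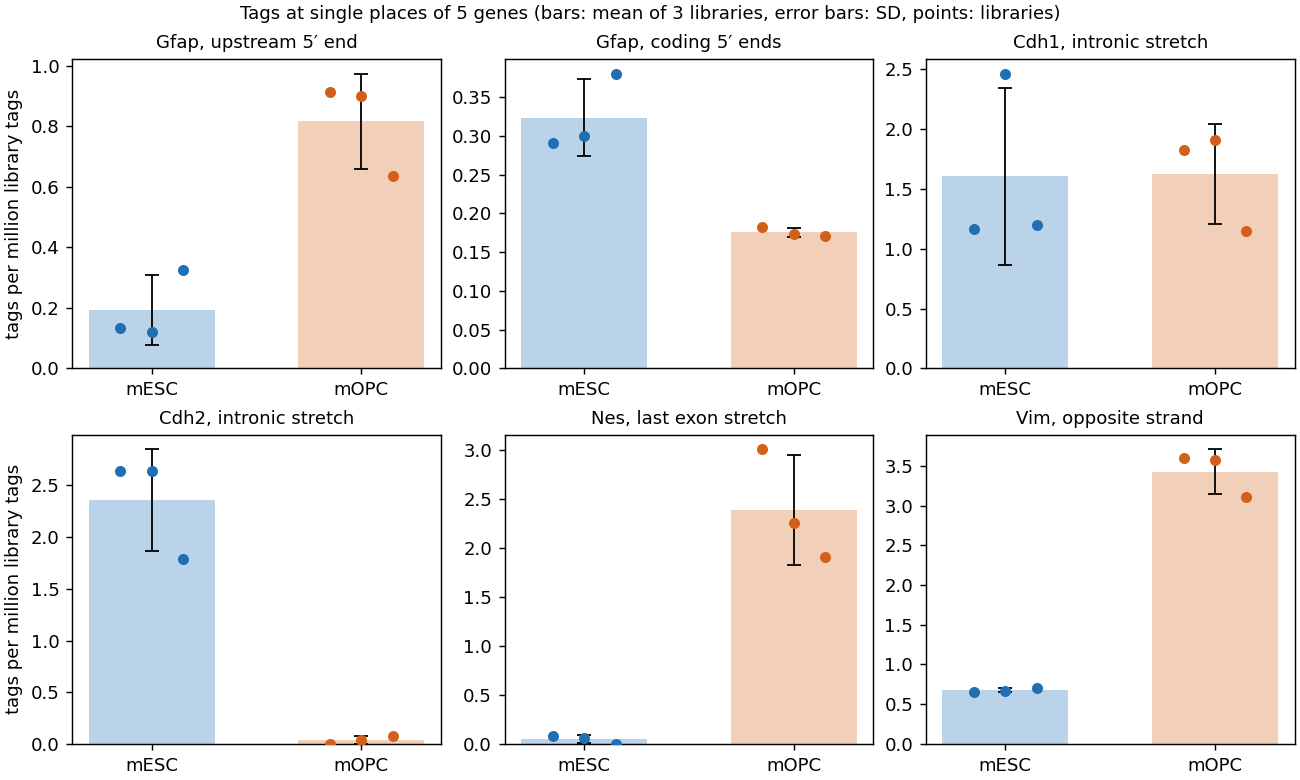
Level in CPM at 6 places, with bars for the mean of 3 libraries, error bars for the SD and points for libraries (mESC blue, mOPC orange; each panel has its own axis from 0). At the upstream 5′ end of Gfap the mOPC libraries lie above the mESC libraries and at the coding 5′ ends below them; the Cdh1 intronic stretch was at 1.61 and 1.63 CPM.

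In each gene the start positions in use were then compared with the annotated 5′ ends. Of Cdh1 tags in mESCs, 36.9% lay at position 106603367 of chromosome 8, and 90.7% ± 0.67 (SD, n = 3) belonged to the group of 5′ ends of the coding transcripts. The remaining 9.32% ± 0.67 lay at the 5′ end of Cdh1-202, a processed transcript. For Epcam, the annotated upstream 5′ ends held 16.6% ± 2.2 of the tags, and the 5′ end of Epcam-204, which is also coding, held 83.4% ± 2.2. The leading position of Epcam, with 35.1% of its tags, lay 751 bp downstream of the most upstream 5′ end, and that order was the same in the 3 mESC libraries.

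Cldn6 likewise used separate starts. The 5′ end of Cldn6-202 held 59.8% ± 4.7 of its tags and that of Cldn6-203 held 40.1% ± 4.6 (SD, n = 3). The leading position alone had 51.0% of the tags, a larger share than that of Cldn7. The span from the 10% to the 90% point of the tags was nonetheless wider, at 336 to 342 bp in mESC libraries. It was 116 to 135 bp for Cldn7. Cldn7 tags lay almost all at Cldn7-201 (98.9% ± 0.065), with 28.5% at the leading position, 104 bp inside that transcript. Krt8 and Krt18 had compact starts. The leading position of Krt8, behind its TATA box, held 58.5% of the tags but lay 167 bp inside the annotated 5′ end. That of Krt18 held 37.5% and lay 47 bp inside.

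**Figure D3:**
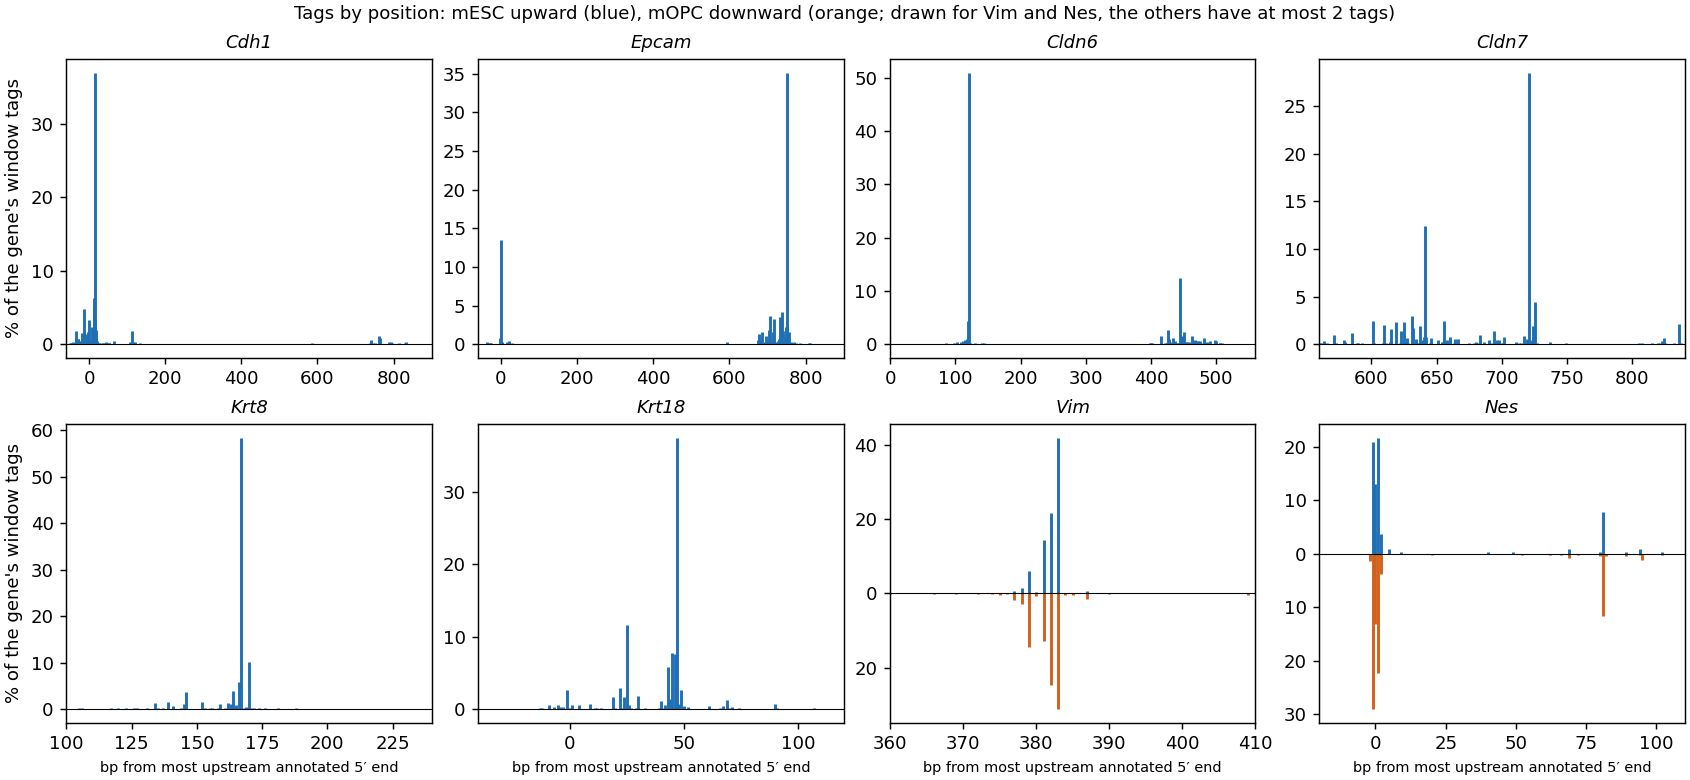
Share of the gene's window tags (%) at each position, pooled over 3 libraries, by distance in bp from the most upstream annotated 5′ end; mESC upward in blue, mOPC downward in orange where there were tags enough. Epcam and Cldn6 have 2 separate groups of starts, and Vim has the same leading position in both cell types with 41.9% and 31.1% of the pooled tags.

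Vim used the same promoter in both cell types, with a lower share at the leading position in each mOPC library. The leading position, 31 bases behind the start of the TATA box, held 39.9%, 42.9% and 44.4% of window tags in mESCs and 30.5%, 33.4% and 29.7% in mOPCs. The mean difference was −11.2 percentage points, without overlap (exact permutation test, two-sided p = 0.1, the smallest possible). At position 13574306, slightly upstream, the order was the opposite, since 6.67%, 5.23% and 5.98% of tags in mESCs lay there against 15.1%, 11.9% and 15.9% in mOPCs. Vim was the one gene of the 10 with at least 100 window tags in each library, which this test required.

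Tags on the strand opposite to Vim, in the same windows, differed more between the cell types than Vim itself. They were at 0.660, 0.660 and 0.706 CPM in mESCs and at 3.60, 3.57 and 3.10 CPM in mOPCs, a 5.07-fold higher mean against 1.33-fold for Vim. Relative to the tags of Vim they were 1.73% ± 0.26 in mESCs and 6.23% ± 0.27 in mOPCs (SD, n = 3). The groups stood apart (exact permutation test, two-sided p = 0.1, adjusted p = 0.114 over the 8 comparisons). The pattern was not particular to Vim. Opposite-strand tags of Cdh2 were at 0.215 ± 0.098 CPM in mESCs and 4.43 ± 0.80 CPM in mOPCs, or 6.41% ± 2.59 and 12.1% ± 1.6 of its window tags. Nes had 1 such tag in mESCs and 0.562 ± 0.028 CPM in mOPCs (SD, n = 3), and Gfap had 4 and 11 tags. These differences were not tested.

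The start of Nes was not tested, since mESC libraries had too few tags. The leading position was 87971079 of chromosome 3 in mESCs pooled and 87971077 in mOPCs, but in mESC_2 it was also 87971077. The pooled mESC tags at these positions were 53 and 51, and the mESC libraries had 49 to 129 tags each in the windows. In mOPCs, Nes also had 1005 tags in exons outside the windows, against 30 in mESCs. The richest stretch of 200 bp, in the last exon (chr3:87977208-87977407), held 66, 65 and 78 tags in mOPCs and 3, 1 and 0 in mESCs. The level of Nes given above does not count them.

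The promoter of Cdh2 in use was that of Cdh2-203 in both cell types, 768 bp downstream of the annotated 5′ end of the full-length transcript Cdh2-201. Position 16808478 of chromosome 18 led in both, with 19.2% and 26.3% of tags. The 5′ end of Cdh2-201 held 13.7%, 10.2% and 10.5% of window tags in mESCs and 26.6%, 23.8% and 21.5% in mOPCs. The share was higher in each mOPC library (11.5% ± 1.9 against 23.9% ± 2.5, exact permutation test, two-sided p = 0.1, adjusted p = 0.114), although in mESCs it rested on 29 tags. Tags inside Cdh2 but outside the windows were at 3.20 ± 0.37 CPM in mESCs and 25.65 ± 1.73 CPM in mOPCs (SD, n = 3), mostly in introns. In mESCs they lay mostly in intron 14 of Cdh2-201. A stretch of 200 bp (chr18:16616136-16616335), found as the one with the most mESC tags outside the windows, held 100, 44 and 33 tags in mESCs, or 2.64, 2.64 and 1.79 CPM, and 0, 1 and 3 in mOPCs. That was 74.4% of the mESC tags of the gene outside the windows. The mOPC tags were spread more, and their richest stretch of 200 bp held 1.28% of them.

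Cdh1 had a single tag at its promoter in mOPCs but more along its body. In mOPC_1, mOPC_2 and mOPC_3, 70, 93 and 92 tags lay in introns of Cdh1 on its strand, and 0 in exons. In mESCs, 903 such tags lay in introns and 844 in exons. Of the 255 mOPC tags, 55.7% fell in 200 bp of intron 2 of Cdh1-201 (chr8:106619779-106619978), 16509 bp from the annotated 5′ end at its most used position. This stretch, found as the one with the most mOPC tags, held 40, 55 and 47 tags in mOPCs and 44, 41 and 22 in mESCs. Its level was 1.63 ± 0.42 CPM in mOPCs and 1.61 ± 0.74 CPM in mESCs (SD, n = 3), and the libraries overlapped (exact permutation test, two-sided p = 1). Within 500 bp of it, 15, 24 and 23 tags of mOPCs lay on the opposite strand, against 45, 15 and 18 of mESCs. At the promoter windows, the mean was 352.2 CPM in the mESC libraries, against a single tag in the mOPC libraries.

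Nearby genes, and pseudogenes named after a gene of the 10, were examined for shared tags. No window of the 10 genes overlapped that of another gene on the same strand. Cldn9, a claudin gene on the opposite strand next to Cldn6, had 114, 67 and 49 tags in mESCs and 16, 17 and 21 in mOPCs, so that it kept tags where Cldn6 had none. The pseudogene Krt8-ps had 1 tag in all. Pseudogenes under other names were not searched, and tags that could map to several places were not examined.

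Genes related to the 10 were examined as lists of cadherins, junction proteins, filaments and regulators. Of 156 genes listed, 154 were annotated, 102 passed the filter on low counts and 52 did not. Of those tested, 26 were called higher and 68 lower in mOPCs, and 8 were not called. The median log2 fold change was −2.60, against −0.12 over all genes tested. Genes that passed the filter because one cell type had them were bound to differ, so the counts describe the lists and set none apart.

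Cadherins changed in both directions. Of the 3 other type I cadherins, Cdh3 (P-cadherin) was at 32.6 to 35.0 CPM in mESCs with no tag in mOPCs, at least 1022-fold lower, and Cdh15 (M-cadherin) rose from 0.866 ± 0.179 to 7.45 ± 1.43 CPM. Of 17 type II and atypical cadherins, 8 were tested, with 6 higher, 1 lower and a median of 3.00. Cdh19, known from glial cells, had no tag in mESCs and 30.6 to 31.7 CPM in mOPCs, at least 757.4-fold higher. Cdh9 went the other way, from 14.0–16.0 CPM to none, at least 463.7-fold lower. Of 12 catenin and nectin-afadin genes, 11 were tested, with 3 higher, 7 lower and a median of −0.45. The neural alpha-catenin Ctnna2 rose from 0.389 ± 0.055 to 79.5 ± 3.2 CPM, and Nectin3 fell from 151.4 ± 6.2 to 39.0 ± 0.63 CPM (SD, n = 3, edgeR adjusted p = 4.09e-65 and 3.09e-40).

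Lists of junction genes held genes of both directions, beside 43.4% higher and 47.8% lower of all genes tested. Of 23 annotated claudins beside Cldn6 and Cldn7, 8 were tested, with 3 higher, 4 lower and a median of −1.22. Cldn4 was at 44.0 to 57.2 CPM in mESCs and at 0 in mOPCs (at least 1609-fold lower), whereas Cldn23 rose from 0.147 ± 0.056 to 4.14 ± 0.52 CPM. Of 18 annotated genes of tight junctions and polarity, 17 were tested, with 2 higher, 14 lower and a median of −2.90. F11r, an adhesion protein of tight junctions, was at 24.4 to 28.6 CPM in mESCs and at 0 in mOPCs (at least 789.5-fold lower), and its relative Jam3 rose from 10.5 ± 0.27 to 101.2 ± 11.1 CPM. Of 18 desmosome and cytolinker genes, 12 were tested, with 3 higher, 9 lower and a median of −8.56, or −6.42 with genes at 0 in a cell type set to their bound. The desmosomal cadherin Dsg2 was at 128.5 to 137.5 CPM in mESCs and at 0 in mOPCs (at least 4031-fold lower), while the catenin relative Pkp4 rose from 9.36 ± 1.01 to 38.9 ± 1.0 CPM.

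Of 20 other keratin genes, 6 were tested, with none higher, 4 lower and a median of −7.39 (−5.95 with genes at 0 set to their bound). Krt42 was at 8.95 to 11.3 CPM in mESCs and at 0 in mOPCs, at least 312.5-fold lower. Of 15 other intermediate filament genes, 13 were tested, with 2 higher, 10 lower and a median of −2.76. The neurofilament gene Nefh was at 22.8 to 26.5 CPM in mESCs and at 0 in mOPCs (at least 727.1-fold lower). Bfsp2, which encodes a filament protein of the eye lens, had no tag in mESCs and 40.9 to 48.9 CPM in mOPCs, at least 1092-fold higher and above Nes.

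Regulators of the epithelial and of the mesenchymal state were listed separately. Of 17 epithelial transcription and splicing regulators and linked genes, 15 were tested, with 14 lower, 1 higher and a median of −9.07 (−8.33 with genes at 0 set to their bound). St14, a membrane protease of epithelia, was at 55.0 to 59.4 CPM in mESCs and at 0 in mOPCs (at least 1755-fold lower), and Grhl1, a transcription factor of epithelia, rose from 13.7 ± 1.1 to 27.02 ± 3.1 CPM. Of 11 mesenchymal regulators, 9 were tested, with 5 higher, 3 lower and a median of 0.87. By the rule for naming, Prrx1 (0 against 14.3 to 17.1 CPM, at least 392.6-fold higher) and Snai3 (7.62 to 8.63 CPM against 0, at least 248.4-fold lower) stood at the ends of the list. The others called were chosen after their values were seen. Zeb1 rose from 40.3 ± 2.7 to 254.4 ± 11.4 CPM and Zeb2 from 8.96 ± 1.04 to 225.6 ± 11.4 CPM, and Tcf4 and Twist1 were also higher. Snai1 went from 5.63 ± 1.19 CPM to 1 tag in 3 libraries and Snai2 from 4.74 ± 0.60 to 0.643 ± 0.207 CPM (SD, n = 3), so that the Zeb and Snail families, both known as repressors of Cdh1, changed in opposite directions.

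**Figure D4:**
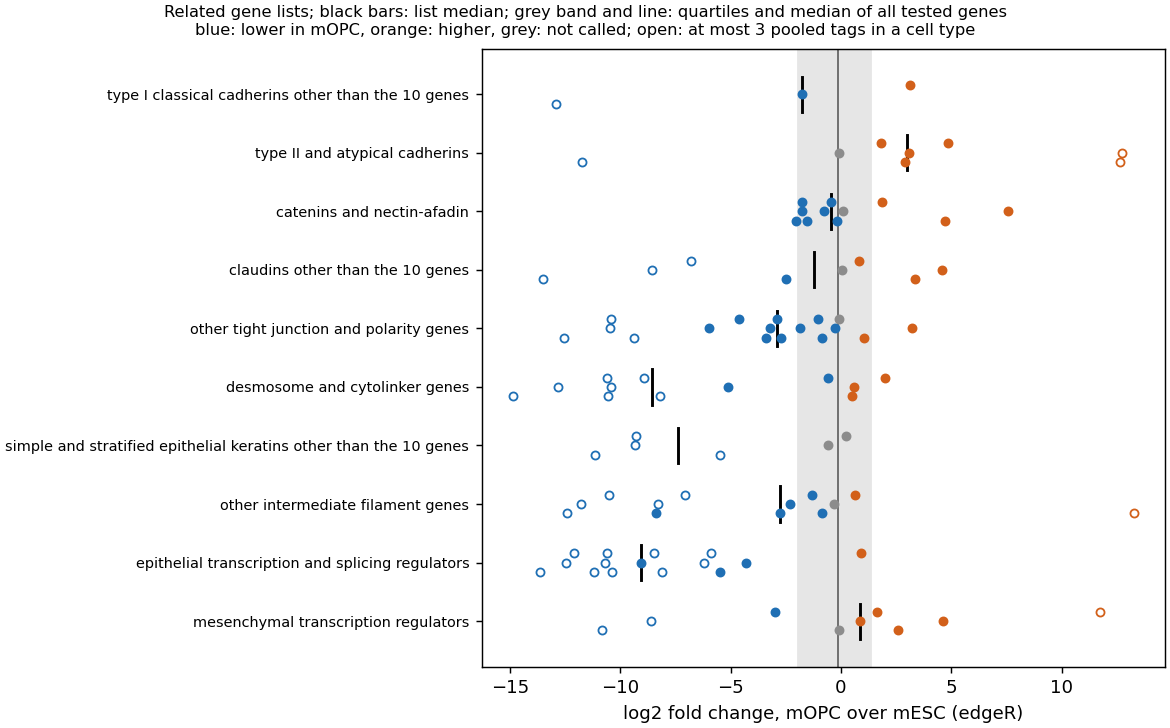
Log2 fold change (mOPC over mESC, edgeR) of each tested gene of the 10 related lists, with black bars for list medians and a grey band and line for the quartiles and median of all tested genes. Orange genes were called higher, blue lower and grey not called; open circles have at most 3 pooled tags in a cell type, so that their fitted value is no bound. Desmosome, keratin and epithelial regulator lists lie furthest left, and type II cadherins lie mostly to the right.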

How the data were processed

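CAGE libraries were made by the authors from nuclear RNA (random-primed, cap-trapped, tags cut with EcoP15I and amplified by PCR without molecular identifiers), sequenced and aligned to mm10. The labels name CASAVA 1.8 and BWA 0.5.9. The deposited values are raw counts of tags per position and strand, without normalization, at positions 1 bp wide. Tags were summed with Python 3.11.15 and pandas 2.3.3 within 500 bp of every GENCODE release 21 (mouse) 5′ end of a gene on its strand. The 10 genes, the related and marker lists and the rule for named genes (all 10 genes, and of each related list the called gene that changed most on the log2 scale, up and down, at 1 CPM or more) were chosen with earlier results of these data known. mESC and mOPC libraries were compared with edgeR 4.0.16 in R 4.3.3 (robust quasi-likelihood fit, TMM on library totals, filterByExpr, Benjamini-Hochberg adjusted p under 0.05), fitted over all genes and tested on simulated data. DESeq2 1.42.0 was an alternative. Single values were compared by exact permutation. Annotated 5′ ends within 100 bp formed 1 group, and the split of tags by these groups, the 200 bp stretches and the opposite strand were examined after the values were seen. Intervals and floors cover counting error only. The RNA-chromatin interaction data of the study were not used here.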

Additional observations from a re-analysis of the deposited data

How the results depend on the processing

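Results were recomputed with library totals in place of TMM, with DESeq2, without the filter, with windows of 100 or 1000 bp, over the whole gene body, with tags of a single gene's windows, with libraries thinned to 16657021 tags, with a replicate block and without each library in turn. Direction and side of the threshold stayed for Cdh1, Cdh2, Epcam, Cldn6, Cldn7, Krt18, Vim and Nes under each of these, and for Krt8 under each except the 100 bp window, in which it had too few tags to be tested because its start lies 167 bp inside the annotated 5′ end. For Gfap, with 36 and 88 tags, the log2 fold change of 0.89 was 0.80 with DESeq2 (adjusted p = 0.117) and −0.38 over the whole gene body (adjusted p = 0.322). The gene body leaves out the tags before the most upstream annotated 5′ end, where most mOPC tags of Gfap lay. Without each library in turn the log2 fold change of Gfap ranged from 0.73 (without mESC_1, adjusted p = 0.0700) to 1.04. The range over all alternatives was 0.32 to 0.48 for Vim, 3.09 to 3.48 for Cdh2 and 2.92 to 3.57 for Nes. For genes with 0 to 2 mOPC tags the fitted size moved more and is no bound. It was −14.53 for Cdh1, −16.34 without mOPC_1, which held its single mOPC tag, and −6.88 over the whole gene body, which adds the intronic tags. It was −9.04 for Krt8 and −10.63 without mOPC_3, which held its single mOPC tag, with a range of −10.63 to −8.29. The ranges were −12.48 to −11.17 for Epcam, −12.42 to −10.49 for Cldn6, −11.95 to −10.93 for Cldn7 and −11.68 to −10.76 for Krt18. With the replicate block the values were 0.41, 3.39, 3.10 and 0.89 for Vim, Cdh2, Nes and Gfap, and it changed no call of the 10 genes. Libraries of the same number did not deviate together (r = −0.004, 0.044 and 0.004 across genes), so the numbers pair no samples. Depth limits Gfap and the mOPC side of the 6 epithelial genes, where 1 or 2 tags decide a ratio.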
